A study of Homo sapiens with 30 samples.

Results

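Among the chromatin regions listed as more accessible in HNF6 knockout cells at the pancreatic endoderm stage, 963 were also listed as more accessible in the knockout at the pancreatic progenitor stage. They were chosen by measured values: each is an autosomal region of the knockout list of the first of these stages that shares at least 1 bp with a region of the knockout list of the second. The autosomal knockout list of pancreatic endoderm holds 5469 regions, so that the share chosen was 17.6%, and the other 4506 regions serve as background. The knockout list of pancreatic progenitors holds 24647 autosomal regions, of which 979 were touched. The difference between knockout and control cells at these stages chose the regions, so its values are given as a description and were not tested.

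The study followed HUES8, an established human embryonic stem cell line, through pancreatic differentiation in vitro, with HNF6 (ONECUT1) knockout cells and wild-type control cells. ATAC-seq was run on 30 samples in 10 groups of 3: knockout and control cells at 5 stages. These are the undifferentiated embryonic stem cells (ESC), definitive endoderm (DE), the gut tube stage (GT), and the later PE (pancreatic endoderm) and PP (pancreatic progenitor) stages. The series title gives the role of HNF6 in this differentiation as the question. The labels say neither whether the knockout cells are 1 clone or how the gene was disrupted, nor whether the 3 samples of a group are separate differentiations, so the spread between samples may be technical.

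ATAC-seq reads out where DNA is open to a transposase, which cuts mostly at promoters, enhancers and other regulatory elements. HNF6 belongs to the ONECUT family of homeodomain factors, is made in the developing liver, bile ducts and pancreas, and is known to act upstream of the endocrine lineage in pancreatic progenitors. Pancreatic endoderm and the progenitors that follow it are the stages at which pancreatic enhancers open and at which this factor is normally present.

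The deposited lists hold 89929 regions in all, with 3 whole-number values per genotype for each region and no library totals, so that the depth of the samples is unknown. No source used here says whether these numbers count reads or were scaled, and they are called values. They pair no region with a gene, so neither the targeted gene nor markers of the stages could be read. Positions are on hg19. The autosomal knockout and control lists hold 11341 and 8516 regions at ESC, 11810 and 7004 at DE, 7500 and 2783 at GT, 5469 and 7046 at PE, and 24647 and 3158 at PP.

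The shared regions were moderately more open in the knockout at both stages. Over the 963 regions the medians of the 3 PE values were 651, 620 and 618 in knockout cells, against 405, 421 and 446 in control cells. At PP, where each region is represented by the partner region it shares most bases with, the medians were 450, 404 and 411 in knockout cells, against 243, 269 and 254 in control cells. The 3 knockout medians lay above the 3 control medians at both stages. In these bulk samples a region open in more cells and a region more open in each cell cannot be told apart.

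The median log2 ratio of knockout over control was 0.55 at PE, with quartiles of 0.43 and 0.74 and a range of 0.23 to 2.48. At PP it was 0.71, with quartiles of 0.56 and 0.91 and a range of 0.23 to 2.48. The PP ratio was the larger one in 701 of the 963 regions (72.8%). Larger ratios at PP were not limited to the shared regions. The medians of the other knockout regions, which are different regions at each stage, were 0.62 at PE and 1.10 at PP. All 3 knockout values lay above all 3 control values in 722 shared regions at PE (75.0%), against 74.4% of the other knockout PE regions. At PP this held for 774 (80.4%), against 79.3% of the other knockout PP regions. It held at both stages in 583 (60.5%) and at neither in 50 (5.19%). These joint counts have no background share, since the other regions have no partner, and are a description only. The shares near the background say nothing particular about the shared regions, since every list was selected for such a difference.

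Over all widths, large ratios were rarer among the shared regions than in the lists they come from. A ratio of at least 2-fold was reached by 104 shared regions at PE (10.8%), where 24.4% of the other knockout PE regions reached it. At PP 164 shared regions reached it (17.0%), where 58.3% of the other knockout PP regions did, and 64 (6.65%) reached it at both stages. Over the partners the PP log2 ratio was smaller in wider regions (Spearman -0.52). Partners and other PP regions of like width were not compared. The median log2 ratio of the other regions was 0.62 at PE and 1.10 at PP. The shared regions were instead wider, and stronger by the median: their median width was 1100 bp at PE, against 850 bp for the other PE regions, and the median width of their partners was 1100 bp at PP, against 650 bp for the other PP regions. Per kb of width, the median knockout value was 524.3 in shared and 468.4 in other regions at PE, and 351.1 in partners and 239.4 in other regions at PP. The upper quartile was lower in shared regions at PE (789.5, against 805.7 in the others) and higher in partners at PP (525.1, against 286.2).

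Wider regions had smaller ratios and were shared more often. Of the knockout PE regions up to 500 bp wide, 6.56% were shared (72 regions), and these had a median log2 ratio of 1.26 at PE and 1.07 at PP. Of those wider than 2000 bp, 29.7% were shared (121 regions), with medians of 0.41 at PE and 0.63 at PP. The shares between were 17.6% for regions over 500 and up to 1000 bp, 21.1% up to 1500 bp and 21.7% up to 2000 bp. The other knockout PE regions had median PE log2 ratios of 1.36 up to 500 bp and 0.68 up to 1000 bp, where the shared regions had 1.26 and 0.66. Above 1000 bp the order turned: the medians were 0.52 in shared and 0.48 in other regions up to 1500 bp, 0.48 and 0.44 up to 2000 bp, and 0.41 and 0.39 beyond. A wider region can overlap a region of another list more easily, and how much of the difference in width this makes was not tested. Over the 963 regions the correlation of the PE log2 ratio with width was -0.49 (Pearson) and -0.61 (Spearman), and with the control value per kb it was -0.61 and -0.76. These are descriptions across regions of the same 6 libraries, and the ratio contains the control value.

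Regions with a large ratio at PE tended to have one at PP. The correlation of the log2 ratios over the 963 regions was 0.61 (Pearson) and 0.55 (Spearman), and over the 788 regions with a knockout mean of at least 200 at both stages it was 0.56 and 0.48. The PE and PP libraries are different samples, but both ratios were smaller in wider regions, and regions are not independent replicates.

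**Figure D1:**
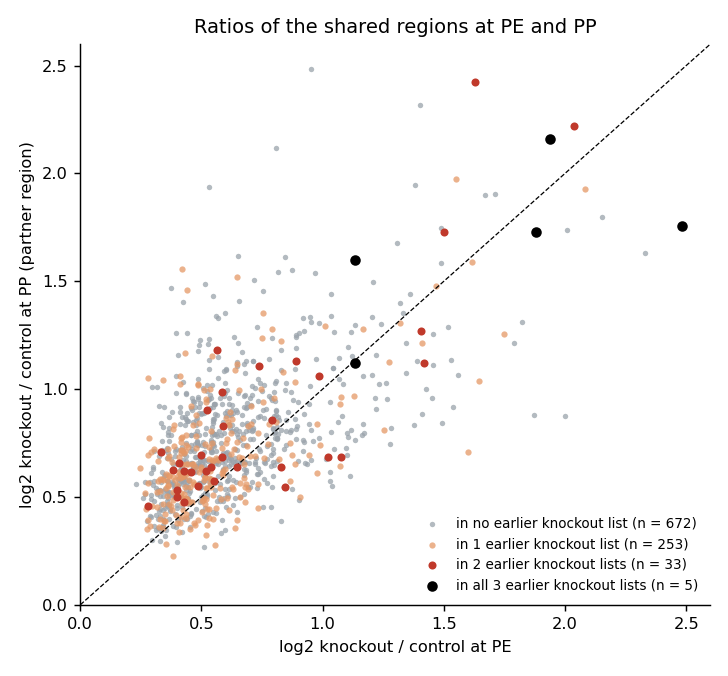
Each point is 1 of the 963 shared regions, with the log2 ratio of knockout over control at PE on the horizontal axis and that of its partner region at PP on the vertical axis; the dashed line marks equal ratios and the colours the number of knockout lists of ESC, DE and GT that also hold the region. Of the points, 701 lie above the line, and the 5 black points are the regions also listed at all 3 earlier stages. The median ratio was also larger at PP than at PE in the rest of these knockout lists.

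The overlap that links the lists was mostly broad. The shared stretch had a median of 700 bp, in 444 pairs (46.1%) it covered the whole of the shorter region, and in 825 (85.7%) at least 50% of it. One PP partner was found for 938 shared regions, 2 for 24 and 3 for 1, and 10 partners were touched by 2 shared regions. Positions run in steps of 50 bp, so the threshold lies between 0 and 50 bp. The 17 regions just inside it, which share 50 bp, had a median PE log2 ratio of 0.51, and the 26 regions just outside, with a gap of up to 50 bp (11 of them abutting), had 0.56.

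The balance of directions at PP was close to that of the whole PP comparison. Of the knockout PE regions listed at PP in a single direction, 960 were higher in knockout and 121 higher in control, a knockout share of 88.8%. The whole autosomal PP comparison had a knockout share of 88.6%. Regions higher in control at PE had 425 higher in knockout and 336 higher in control at PP, a knockout share of 55.8%. The knockout share of the knockout PE regions was thus near that of the PP lists as a whole, and above that of the control PE regions. All of these counts share the PP libraries, and their differences were not tested.

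The 10 shared regions whose smaller ratio of the stages was largest, among those with no overlap of genotypes at either stage, were mostly narrow and low in control cells. The region chr5:42757351-42757650 had values of 72, 64 and 87 in knockout cells, against 11, 14 and 27 in control cells at PE, a log2 ratio of 2.04. Its PP partner, chr5:42756851-42757800, had 265, 215 and 211 in knockout, against 19, 57 and 70 in control cells, a log2 ratio of 2.22. Control values stayed well below the lowest knockout value at both stages.

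The region chr10:3136701-3137050 had 99, 61 and 121 in knockout, against 40, 24 and 0 in control cells at PE (log2 ratio 2.08), and 47, 59 and 47 in knockout, against 10, 5 and 23 in control cells, at PP (1.93). For chr1:2951951-2952250 the PE values were 80, 84 and 64 in knockout, against 22, 27 and 0 in control cells (2.15), and the PP values 75, 67 and 81 in knockout, against 9, 45 and 8 in control cells (1.80). These were the only shared regions with a control value of 0 at PE, a value that only the third deposited control value took. The genotypes did not overlap, which the choice of these regions required, and 1 low control value enters each of these PE ratios.

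At chr2:236751951-236752400 the PE values were 115, 100 and 109 in knockout, against 32, 36 and 29 in control cells (1.71). Its PP partner had 108, 54 and 41 in knockout, against 10, 20 and 22 in control cells (1.91), and the pair shares only 50 bp. The knockout values of the partner spread more widely than those at PE.

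At chr12:132960151-132960400 the PE values were 94, 44 and 66 in knockout, against 32, 20 and 10 in control cells (1.67), and the PP values 43, 106 and 72 in knockout, against 13, 30 and 14 in control cells (1.90). At chr1:149156051-149156650 they were 162, 231 and 121 in knockout, against 67, 49 and 48 in control cells at PE (1.63), and 108, 96 and 24 in knockout, against 20, 11 and 9 in control cells at PP (2.43). At chr6:4933901-4934100 they were 70, 35 and 38 in knockout, against 18, 5 and 3 in control cells at PE (2.33), and 70, 85 and 71 in knockout, against 23, 22 and 26 in control cells at PP (1.63). In the chromosome 1 region the lowest PP knockout value, 24, lay just above the highest control value, 20. The other 3 of the 10, on chromosomes 10, 19 and 22, were also listed at every earlier stage and are described with those.

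**Figure D2:**
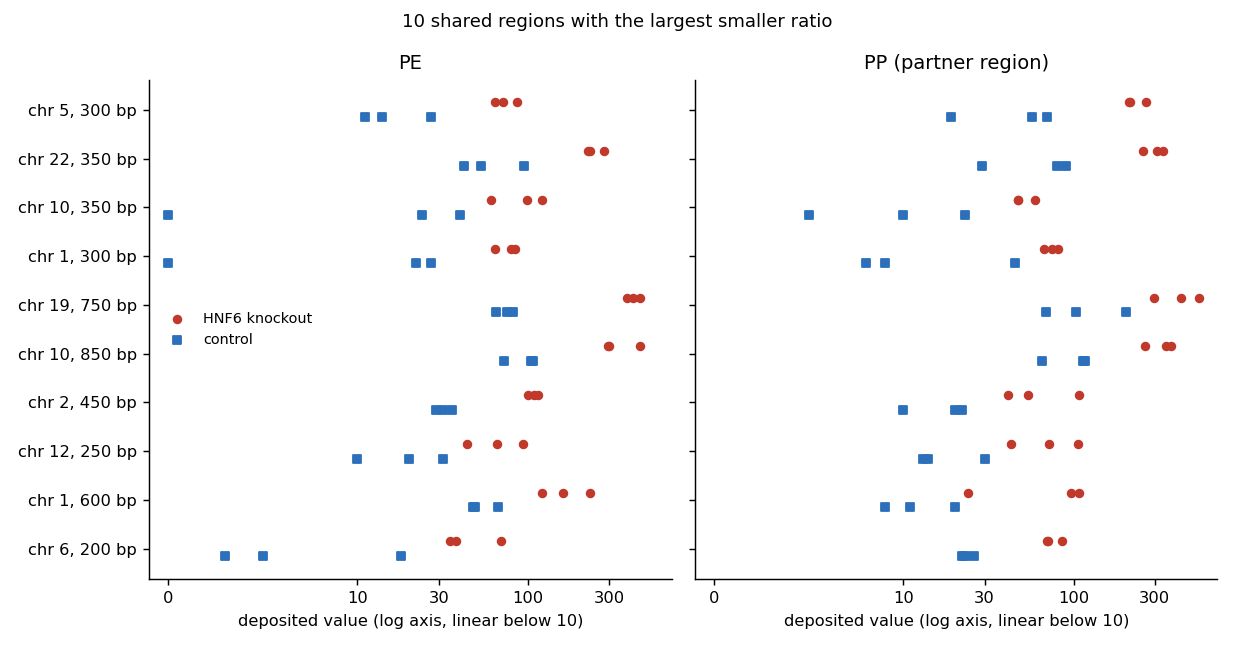
Deposited values of the 10 shared regions with the largest smaller log2 ratio, at PE (left) and in the PP partner (right); red circles are the 3 knockout and blue squares the 3 control values, on an axis that is logarithmic above 10 and linear below. The 10 were chosen among regions whose knockout values all lie above the control values at both stages, so this order is given by the choice. Of them, 2 regions have a control value of 0 at PE.

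Ranking by the smaller of the authors' -log10 p values again named the regions on chromosomes 10, 19 and 22 that were listed at every earlier stage. The other regions it named were mostly wider and stronger than those above, with smaller ratios. The region first in this rank, chr11:2148551-2151700, had 3010, 2731 and 2252 in knockout cells, against 1743, 1630 and 1806 in control cells at PE, a log2 ratio of 0.63. Its PP partner had 1553, 1633 and 1938 in knockout, against 742, 1102 and 1031 in control cells (0.83). A neighbour, chr11:2160151-2162700, had 1851, 2168 and 2234 in knockout, against 1394, 1353 and 1193 in control cells at PE (0.67), and 991, 1329 and 1593 in knockout, against 959, 732 and 752 in control cells at PP (0.68). The genotypes were separate at both stages in both regions, narrowly at PP in the second, where 991 stood beside 959.

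On chromosome 19, chr19:8942501-8943300 had 1106, 1024 and 934 in knockout, against 684, 351 and 416 in control cells at PE (1.08). Its PP partner had 2074, 2163 and 2488 in knockout, against 1360, 1478 and 1347 in control cells (0.68). The region chr19:24097451-24098200 had 459, 657 and 538 in knockout, against 216, 154 and 212 in control cells at PE (1.50), and 591, 559 and 380 in knockout, against 144, 170 and 145 in control cells at PP (1.73). Both were in the knockout lists of ESC and DE as well, where their log2 ratios were 0.79 and 0.79 for the first and 1.20 and 1.06 for the second.

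The region chr2:239773251-239774450 had 800, 753 and 721 in knockout, against 284, 371 and 383 in control cells at PE (1.13), and 845, 716 and 806 in knockout, against 390, 342 and 475 in control cells at PP (0.97). At chr17:2777351-2778250 the PE values were 773, 602 and 556 in knockout, against 293, 277 and 351 in control cells (1.07), and the PP values 534, 832 and 438 in knockout, against 243, 254 and 318 in control cells (1.14). A region of chromosome 8, 2150 bp wide, had 824, 871 and 1027 in knockout, against 458, 507 and 501 in control cells at PE (0.89), and 566, 539 and 533 in knockout, against 266, 240 and 240 in control cells at PP (1.13). None of these 3 had overlapping genotypes at PE or PP.

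The 5 widest shared regions met PP regions that covered only part of them. The widest, chr3:52534151-52541050, spans 6900 bp and had 2518, 2443 and 2457 in knockout, against 1799, 1567 and 1713 in control cells at PE (log2 ratio 0.55). Its PP partner shares 1000 bp with it and had 337, 234 and 290 in knockout, against 213, 162 and 167 in control cells (0.66). Other stretches of this wide region were listed as higher in knockout at GT, with 968, 963 and 1009 in knockout, against 761, 611 and 748 in control cells, and as higher in control at ESC, with 519, 381 and 388 in knockout, against 727, 604 and 489 in control cells. The genotypes overlapped at ESC and at no other of these stages. Of the other 4 widest, on chromosomes 2, 8, 11 and 20, the PE log2 ratio was 0.25 to 0.38 and the PP log2 ratio of the partner 0.62 to 0.84. In the chromosome 11 region, chr11:3111401-3115900, the genotypes overlapped at PE, with 1687, 1494 and 1991 in knockout, against 1357, 1570 and 1181 in control cells. In the chromosome 2 region, chr2:220306701-220311200, they overlapped at PP, with 724, 510 and 747 in knockout, against 341, 433 and 511 in control cells.

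Libraries of the earlier stages did not enter the choice, and the shared regions were followed back through them. The knockout list of ESC held 141 shared regions (14.6%, 95% Wilson interval 12.5 to 17.0), where it held 13.3% of the other knockout PE regions (12.4 to 14.4). That of DE held 136 (14.1%, 12.1 to 16.5), where it held 7.86% of the others (7.11 to 8.68). That of GT held 57 (5.92%, 4.60 to 7.59), where it held 3.57% of the others (3.07 to 4.16). The intervals cover counting error only and were apart at DE and GT and overlapped at ESC. They take regions as independent, though 194 of 941 gaps between neighbouring shared regions were under 100 kb. Whether they overlap is therefore a description and no test.

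Regions that differed in the opposite direction before PE were also present. The control list of ESC held 92 shared regions (9.55%, 7.85 to 11.6), where it held 5.79% of the others (5.15 to 6.51). That of DE held 30 (3.12%, 2.19 to 4.41), where it held 2.8% of the others (2.35 to 3.32), and that of GT held 29 (3.01%, 2.10 to 4.29), where it held 2.15% of the others (1.77 to 2.62). The intervals were apart at ESC and overlapped at DE and GT, again as a description. The control list of PP touched 3 shared regions (0.31%), where it touched 2.69% of the others; those 3 lie in the knockout PP list by the rule.

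Because the shared regions are wider, the shares were also taken among regions 800 to 1600 bp wide, a band chosen after seeing the data, with 508 shared and 1916 other regions. In it the share in the knockout DE list was 13.2% of shared and 8.19% of other regions, and in the knockout GT list 6.10% and 4.28%. For the knockout ESC list the order turned, with 15.0% of shared and 16.2% of other regions. In the control ESC list it was 9.06% and 6.47%, in the control DE list 3.15% and 3.34%, and in the control GT list 3.15% and 2.40%. Within the band the share of shared regions was above that of the others in the knockout DE and GT lists. The same order held in the control ESC and GT lists. Of these lists, only that of control GT had overlapping intervals at all widths. No intervals were taken within the band, so the orders in it are a description.

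**Figure D3:**
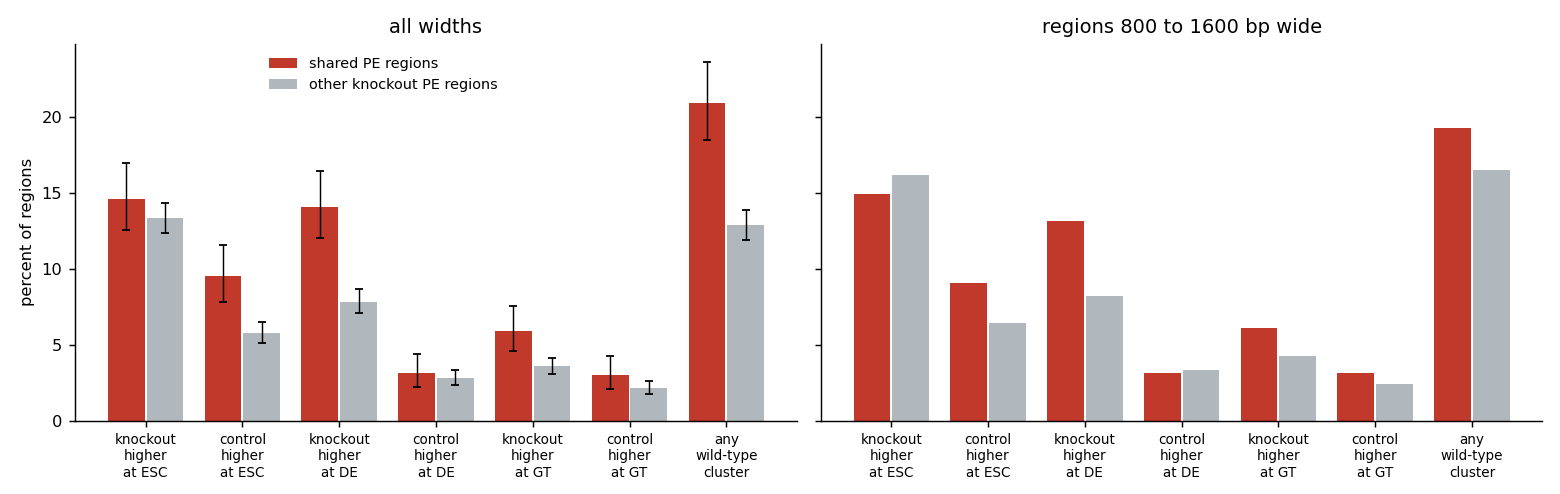
Percent of the 963 shared regions (red) and the 4506 other knockout PE regions (grey) that overlap each list of ESC, DE and GT or any wild-type cluster, at all widths (left, bars with 95% Wilson intervals) and among regions 800 to 1600 bp wide (right). The knockout DE share is higher in shared regions in both panels, at 14.1% against 7.86% and at 13.2% against 8.19%, and the knockout ESC share turns from 14.6% against 13.3% to 15.0% against 16.2%.

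By direction, 135 shared regions were listed at DE as higher in knockout alone and 29 as higher in control alone, a knockout share of 82.3%. The other knockout PE regions had 73.9% and the whole autosomal DE lists 62.8%. At ESC the knockout share was 60.8% for shared regions (138 and 89), 70.5% for the others and 57.1% for the whole lists. At GT it was 66.3% (57 and 29), 62.6% for the others and 72.9% for the whole lists. The shared regions stood above the other knockout PE regions at DE and below them at ESC, and these orders were not tested.

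Where a shared region was listed earlier, the size of its difference was close to that at PE. In the knockout lists the median log2 ratio of shared regions was 0.61 at ESC, 0.58 at DE and 0.67 at GT, against 0.52, 0.56 and 0.64 for the other knockout PE regions. The same shared regions had medians of 0.50, 0.52 and 0.60 at PE, and the same other regions 0.45, 0.52 and 0.61. All regions compared passed the authors' threshold at both stages, so the similar sizes say nothing particular about the shared regions. The 3 knockout values lay above the 3 control values in 111 of 141 at ESC (78.7%), 109 of 136 at DE (80.1%) and 49 of 57 at GT (86.0%). Among the others this held for 70.5% at ESC, 67.8% at DE and 77.6% at GT. In the control lists the median log2 ratio of knockout over control was -0.54 at ESC, -0.60 at DE and -0.51 at GT.

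Most shared regions had no earlier counterpart. In no list of ESC, DE or GT were 565 of the 963 (58.7%), against 3158 of the 4506 others (70.1%). In 1 or more earlier knockout lists were 291 (30.2%), against 1026 of the others (22.8%). In 2 of these lists were 33 shared (3.43%) and 80 other regions (1.78%). In all 3 were 5 shared (0.52%) and 5 other regions (0.11%). In 1 or more earlier control lists were 141 (14.6%), against 464 of the others (10.3%), and 34 shared regions (3.53%) were in lists of both directions, against 142 of the others (3.15%). A region missing from a list may have missed the authors' threshold, so its absence does not show that the genotypes were equal.

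Of the shared regions, 5 (0.52%) were listed as higher in knockout at all 5 stages. The other knockout PE regions are outside the knockout PP list by the rule, and 5 of them (0.11%) were listed at all 3 earlier stages. The region with the largest PE ratio of the 963, chr19:37742351-37743100, had 315, 454 and 432 in knockout, against 100, 166 and 97 in control cells at ESC (log2 ratio 1.72). At DE it had 184, 291 and 314 in knockout, against 137, 107 and 58 in control cells (1.38), and at GT 174, 220 and 172 in knockout, against 79, 78 and 80 in control cells (1.25). At PE it had 385, 414 and 460 in knockout cells, a mean of 419.7 ± 37.8, and 82, 76 and 65 in control cells, a mean of 74.3 ± 8.62 (SD, n = 3 each), which is a log2 ratio of 2.48. At PP it had 297, 426 and 547 in knockout, against 69, 103 and 202 in control cells (1.76). The genotypes did not overlap at any of the 5 stages.

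The region chr22:18879901-18880250 is the narrowest of the 5, at 350 bp. It had 320, 257 and 192 in knockout, against 34, 49 and 47 in control cells at DE (2.54), and 298, 306 and 348 in knockout, against 86, 56 and 108 in control cells at GT (1.92). At PE it had 232, 279 and 225 in knockout, against 42, 95 and 53 in control cells (1.94), and at PP 257, 307 and 334 in knockout, against 90, 80 and 29 in control cells (2.16). At ESC the genotypes overlapped, with 182, 196 and 335 in knockout, against 185, 33 and 105 in control cells (1.14).

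The region chr10:38383101-38383950 had 369, 399 and 423 in knockout, against 137, 110 and 124 in control cells at ESC (1.67). At DE it had 210, 263 and 218 in knockout, against 190, 73 and 83 in control cells (0.99), and at GT 289, 331 and 234 in knockout, against 68, 77 and 215 in control cells (1.24). At PE it had 298, 302 and 455 in knockout, against 104, 107 and 73 in control cells (1.88), and at PP 348, 261 and 372 in knockout, against 116, 113 and 65 in control cells (1.73). The genotypes were separate at all 5 stages, at DE and GT by a small margin because 1 control value was high.

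The remaining members of this group had smaller ratios at PE. The region chr18:14430951-14431650 had 430, 418 and 406 in knockout, against 140, 185 and 245 in control cells at PE (1.13), and 256, 281 and 449 in knockout, against 138, 215 and 99 in control cells at PP (1.12). Its log2 ratio was 1.35 at ESC, 1.52 at DE and 0.89 at GT. The region chr5:115298251-115299100 had 269, 233 and 325 in knockout, against 158, 134 and 83 in control cells at PE (1.13), and 465, 277 and 273 in knockout, against 120, 112 and 101 in control cells at PP (1.60). Its log2 ratio was 0.83 at ESC, 0.75 at DE and 0.83 at GT. Both regions had separate genotypes at every stage.

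**Figure D4:**
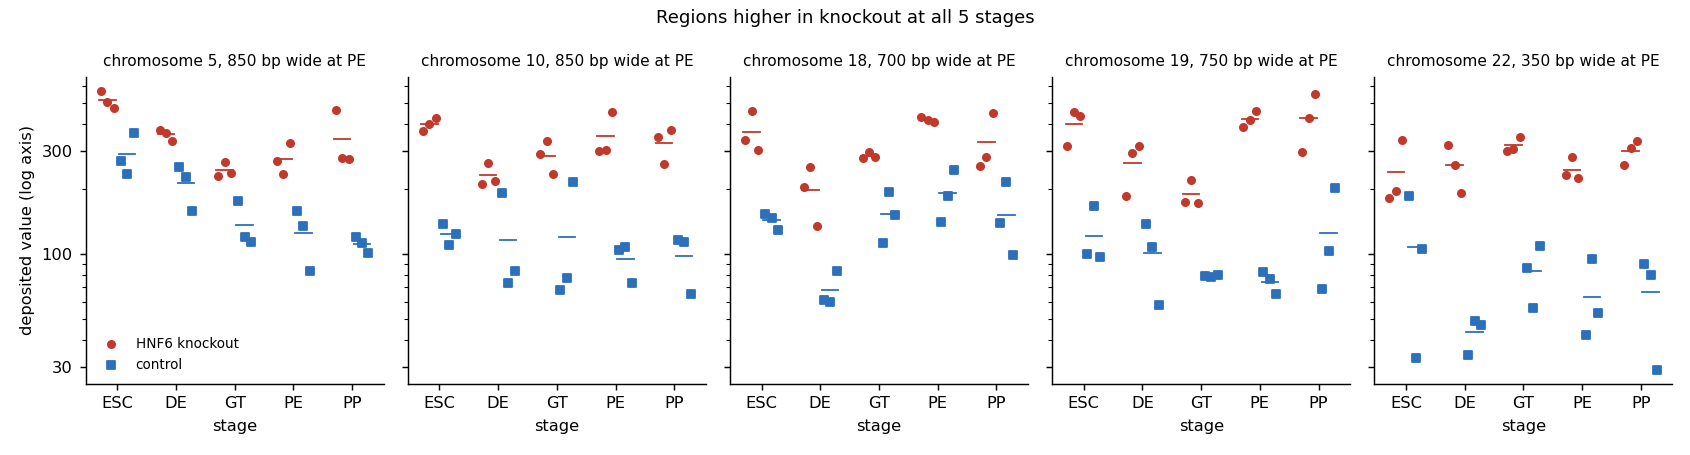
Deposited values by stage, on a logarithmic axis, of the 5 shared regions listed as higher in knockout at all 5 stages; red circles are the 3 knockout values, blue squares the 3 control values and horizontal lines their means. The genotypes overlap at ESC in the chromosome 22 region and nowhere else.

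The chr5:42757351-42757650 region described above was also listed before differentiation. At ESC an overlapping region of the knockout list had 632, 468 and 533 in knockout, against 155, 88 and 222 in control cells (log2 ratio 1.81), and at DE 338, 275 and 175 in knockout, against 135, 155 and 92 in control cells (1.04). The genotypes were separate at both of these stages, and the region was in neither list at GT. The chr1:149156051-149156650 region was likewise in the knockout lists of ESC, with 128, 179 and 162 in knockout, against 51, 38 and 61 in control cells (1.63), and of DE (1.44).

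The deposited wild-type clusters, 9 sets of accessible regions of 500 bp, touched 202 shared regions (21.0%, 95% Wilson interval 18.5 to 23.7), against 12.9% of the other knockout PE regions (11.9 to 13.9). Among regions 800 to 1600 bp wide the shares were 19.3% and 16.5%, a smaller difference than at all widths. The labels do not describe the clusters beyond their number. By cluster, the shared regions were most often in cluster 8, with 39 regions (4.05%, against 1.51% of the others), cluster 6 with 35 (3.63%, against 2.93%) and cluster 7 with 33 (3.43%, against 2.46%). In the width band cluster 8 held 4.13% of shared and 2.45% of other regions, while the order turned for cluster 6 (2.76% and 3.29%), cluster 7 (2.36% and 3.13%) and cluster 1 (1.97% and 2.71%). Cluster 3 held 27 shared regions (2.80%, against 1.18% of the others) and cluster 2, with the fewest, held 9 (0.93%, against 0.55%). Shared regions in a cluster had a median log2 ratio of 0.47 at PE and 0.66 at PP, and the 761 in none had 0.58 and 0.72.

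The shared regions were spread over all 22 autosomes, most on chromosome 3 (99), chromosome 2 (93) and chromosomes 5 and 16 (83 each), and fewest on chromosomes 21 (6) and 18 (7). As a share of the knockout PE regions of a chromosome they ran from 5.96% on chromosome 19 (22 of 369) to 31.0% on chromosome 4 (22 of 71), with 28.8% on chromosome 6 (60 of 208). The number of knockout PP regions was 433 on chromosome 19, 1125 on chromosome 4 and 1935 on chromosome 6, and did not follow the order of the shares: chromosome 2 had the most, 1960, at a share of 18.1%, and chromosome 21 the fewest, 230, at 10.5%. Over the 22 autosomes the share correlated with the number of knockout PP regions per knockout PE region at 0.57 (Pearson) and 0.62 (Spearman), a description in which both measures are divided by the same count of PE regions. The balance of the lists themselves differed by chromosome, with a knockout share of listed regions at PE from 9.94% on chromosome 18 to 75% on chromosome 19, and at PP from 47.8% on chromosome 19 to 97.6% on chromosome 4. The part of these differences in the choice of shared regions was not tested.

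**Figure D5:**
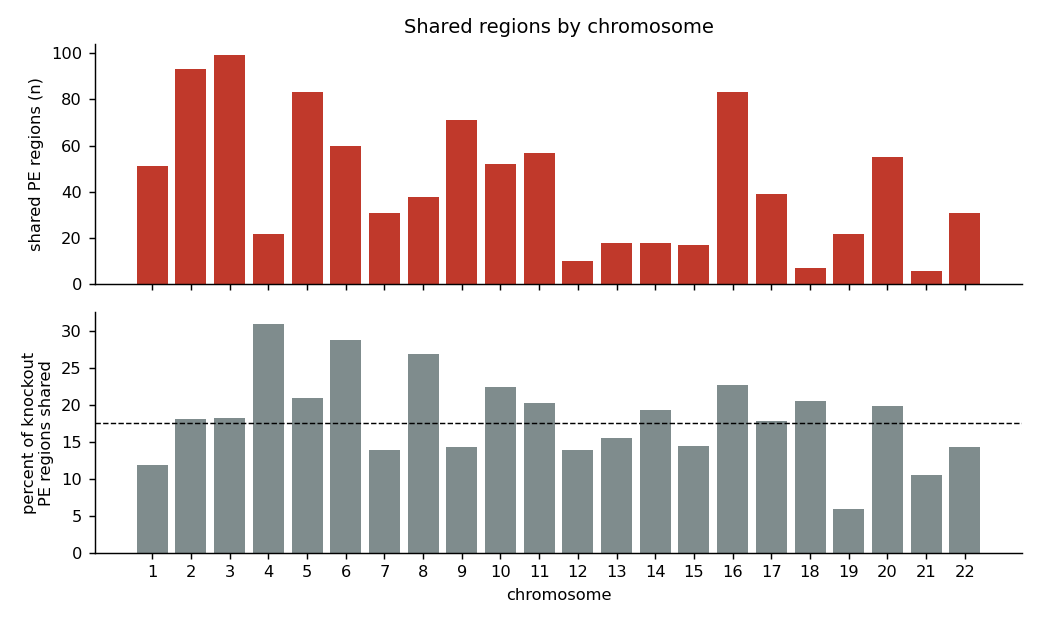
Number of shared regions on each autosome (top) and their percent of the knockout PE regions of that autosome (bottom), with the dashed line at 17.6%, the share over all autosomes. Chromosome 3 holds the most, 99, and the share runs from 5.96% on chromosome 19 to 31.0% on chromosome 4.

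Along the chromosomes, 545 windows of 1 Mb held a shared region. In 351 of them it was the only one, and the other 612 shared regions lay in 194 windows with at least 2. Between neighbouring shared regions the median gap was 556250 bp, and 50 of 941 gaps were under 10 kb. A small number of windows held many: 13 windows had 7 or more, together 110 shared regions. Windows chr16:1000001-2000000 and chr9:139000001-140000000 held 11 each, of 30 and 55 knockout PE regions. Windows chr11:2000001-3000000 and chr2:239000001-240000000 held 10 each, of 22 and 45. The chromosome 11 window holds chr11:2148551-2151700 and chr11:2160151-2162700, and the chromosome 2 window holds chr2:239773251-239774450. The fullest windows were also full in the lists as a whole, with 77, 39, 64 and 38 knockout PP regions in the same order.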

How the data were processed

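ATAC-seq had been run on 30 samples, 3 per genotype and stage. The tools Bowtie2 and MACS2 and the build hg19 are named per the submitters' processing notes, without versions or roles. The caller of differential regions, any read shift and any scaling are steps not given in these notes or in the other sources used here.

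The authors deposited, per genotype and stage, a list of differential regions with a log2 ratio, a -log10 p of at least 5 and 2 sets of 3 whole-number values. The deposited log2 ratio equals control over knockout of the set means with 1 added to each; its sign was turned here, so that a positive value means higher in knockout. The set read as knockout was the higher one in every knockout list and the set read as control in every control list, so the reading follows from the names of the lists. No count model was run, since nothing states that the values are reads. Ratios and p per region are the authors' own and describe or rank regions. The values carry no replicate number, and with 3 against 3 an exact two-sided permutation test cannot go below 0.1, so none was run.

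Overlap meant at least 1 bp. Python 3.11.15, numpy 2.4.6, pandas 2.3.3, SciPy 1.17.1 and matplotlib 3.10.9 were used, and the overlap code was tested on simulated lists. Wilson intervals cover counting error only, take regions as independent and were not used as a test. The shared regions and all lists were chosen with earlier results of these data known. Regions named are the 10 with the largest smaller log2 ratio of the stages among those separate at both, the 10 with the largest smaller -log10 p, those in all earlier knockout lists and the 5 widest. Gene lists and motifs were not applied, since no hg19 annotation or sequence was used here. Alternatives tried were other definitions of overlap, other added values, a low-value filter, the upper part of each list by p, a width band and leaving out each value in turn.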

Additional observations from a re-analysis of the deposited data

Results flagged for a closer look

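In some shared regions the genotypes differed in opposite directions at PE and at another stage, with all values of one genotype above all values of the other both times. All 3 knockout values were above control at PE and all 3 control values above knockout at the other stage in 48 shared regions at ESC (4.98%), 15 at DE (1.56%) and 15 at GT (1.56%). Among the other knockout PE regions the same held for 142 at ESC (3.15%), 47 at DE (1.04%) and 46 at GT (1.02%), so such regions were not limited to the shared ones. Among the regions in the control list of the stage, they made up 52.2% of shared and 54.4% of other regions at ESC. At DE these shares were 50% and 37.3%, and at GT 51.7% and 47.4%. The difference between the stages was not tested in any such region, and the overlapping regions of the lists need not cover the same bases.

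The largest such opposite difference was at chr1:2951951-2952250. At GT the overlapping region, chr1:2951301-2952000, had 65, 55 and 47 in knockout, against 100, 141 and 171 in control cells, a log2 ratio of knockout over control of -1.29. At PE the shared region had 80, 84 and 64 in knockout, against 22, 27 and 0 in control cells (2.15). The GT and PE regions share only the 50 bp from 2951951 to 2952000. Their values thus come almost wholly from different bases, and do not show 1 stretch that turned.

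At PP, 2 shared regions (0.21%) and 55 of the others (1.22%) were separate the opposite way in the control list. These 2 touched both a knockout and a control region that were separate by genotype. For chr1:40779401-40781100 the control-list region at PP, chr1:40780551-40781450, had 371, 467 and 324 in knockout, against 487, 702 and 553 in control cells (-0.58), while the knockout-list partner had 304, 202 and 225 in knockout, against 137, 118 and 181 in control cells (0.74). For chr13:31038201-31040050 the control-list region, chr13:31040001-31040400, had 622, 661 and 597 in knockout, against 741, 968 and 727 in control cells (-0.37), and the knockout-list partner had 579, 619 and 435 in knockout, against 427, 370 and 296 in control cells (0.58). In both, the opposite PP regions lie apart from each other and touch the same PE region. These shared regions were chosen after their values were seen.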

How the results depend on the processing

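The number of shared regions was between 730 and 864 when 50% of the shorter region had to be shared (825), the PE midpoint had to lie in a PP region (730), 1 region per 100 kb was kept (840) or chromosome 3 was left out (864). Each of these settings can only lower the number, so this range says nothing of stability. With both lists reduced to their upper part by p, 357 shared regions were left. Fewer regions of either list enter then, and the share of the reduced PE list was not taken. That reduction of the earlier lists left 35 shared regions in knockout GT (3.63%, against 2.04% of the others). The reduction left 60 in control ESC (6.23%, against 3.35%) and 17 in control DE (1.77%, against 1.44%). In every reduced list of ESC, DE and GT the share of shared regions stayed above that of the others. Among regions 800 to 1600 bp wide, fewer regions enter, and the order of shared and other regions turned for knockout ESC (76 shared regions, 15.0% against 16.2%) and control DE (16, 3.15% against 3.34%). Leaving out each value in turn gave median log2 ratios of 0.53 to 0.58 at PE and 0.65 to 0.75 at PP. The count of regions separate at both stages was then 605 to 657, which cannot lie below the 583 with all values, since fewer values are easier to separate, and says nothing of stability. The other alternatives added 5 or 0.5 to the means or required a knockout mean of 50. They moved the median log2 ratios by less than 0.059 at PE and 0.102 at PP. These limits are SDs of the median over all pairings of 1 knockout with 1 control value, which reuse the same values. No paired analysis was possible because the values carry no replicate number. Counts near listed genes and motif shares were not run, for want of an hg19 reference here. With depth unknown, a region absent from a list cannot be read as equal between genotypes.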

Other observations

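The region chr5:149499101-149500900, chosen after its values were seen, was the only shared region in the control lists of all 3 earlier stages. Its PE values overlapped, with 597, 389 and 527 in knockout, against 403, 452 and 205 in control cells (log2 ratio 0.51), and its PP partner was separate, with 442, 382 and 499 in knockout, against 296, 213 and 205 in control cells (0.89). At GT the control-list region had 370, 283 and 321 in knockout, against 567, 453 and 440 in control cells (-0.58) and was separate, while the genotypes overlapped at ESC (-0.56) and DE (-0.53). Of the 3 shared regions that also touch the control PP list, chr9:139008851-139010600 had overlapping genotypes in the control-list region, with 1168, 1269 and 1461 in knockout, against 1688, 1698 and 1419 in control cells (-0.30).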
